A study of Mus musculus with 12 samples.

Results

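This account covers the 94 protein-coding genes of the kidney count table whose symbols belong to the drug-metabolizing cytochrome P450 families Cyp1, Cyp2 and Cyp3, the UDP-glucuronosyltransferases Ugt1 and Ugt2, the soluble glutathione transferases (Gst) and the sulfotransferases (Sult). They were chosen by symbol and biotype alone, out of 39171 genes in the table, 17932 of them labelled protein coding. The set holds 45 P450 genes (2 Cyp1, 38 Cyp2 and 5 Cyp3), 17 Ugt genes (9 Ugt1 and 8 Ugt2), 22 Gst genes and 10 Sult genes. RNA was sequenced from the kidneys of 12 male mice no older than 3 months. Wild-type mice made up 1 group of 4. The other 8 carried the M743T change in GNE on both alleles, as a knock-in; 4 of them were labelled healthy and 4 sick. GNE is the enzyme that starts sialic acid synthesis. The sick and healthy knock-in groups differ by their health label, not by genotype, and the labels name no treatment, tissue-specific driver or strain. The labels do not say what the sick label rests on.

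Drug metabolism is commonly divided into phases. In phase I, P450 enzymes of the endoplasmic reticulum take electrons from the reductase Por and insert oxygen into lipophilic drugs, steroids and fatty acids. In phase II, transferases attach a polar group: Ugt enzymes add glucuronic acid from UDP-glucuronic acid, Gst enzymes add glutathione to electrophiles, and Sult enzymes add sulfate from the donor PAPS. The liver carries most of this capacity, and in the kidney the proximal tubule is the main site.

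Each library held between 10605546 and 22633684 counts in sick, 18191087 and 21925419 in healthy knock-in and 13189478 and 19493856 in wild-type mice. Levels are given as CPM, the counts of a gene normalised to the library's total count, with the totals scaled by the TMM method. In a principal component analysis of all tested genes the first component (60.9% of the variance) set the 4 sick libraries apart from the other 8, and the second (11.9%) set wild-type mouse 2 apart at -84.7 and sick mouse 3 at -38.9, the other 10 libraries lying from 1.34 to 28.4. All 12 of 12 proximal tubule markers fell in sick against wild-type mice, and the androgen-responsive marker Kap was listed at 0 in wild-type mouse 2. The summed level of the other 11 markers was 19620 to 25920 CPM in wild-type, 20670 to 25750 in healthy knock-in and 2422 to 4943 in sick mice. All 6 of 6 macrophage markers, 6 of 6 fibroblast markers, 6 of 6 injured tubule markers, 5 of 5 urothelial markers and the 4 tested adipocyte markers rose. The summed urothelial level was 1.21 to 5.13 CPM in wild-type, 1.08 to 61.8 in healthy knock-in and 24.6 to 202 in sick mice. That of 5 adipocyte markers was 52.8 to 97.2 CPM in wild-type, 39.1 to 72.8 in healthy knock-in and 34.4 to 944 in sick mice. Thick limb and distal tubule markers fell in 4 of 6 cases, with 0 risen. Among 6 collecting duct markers 1 rose and 1 fell, among 4 podocyte markers 1 rose and 0 fell, and among 4 endothelial markers 0 rose and 1 fell. Over all tested genes 25.9% rose and 25% fell. Of the 10 hepatocyte markers 4 were tested, of which Fga rose (log2 1.81, adjusted p = 0.034) and Alb fell (-3.62, 9.83e-05). Their summed level was 20.6 to 775 CPM in wild-type, 177 to 648 in healthy knock-in and 78.2 to 384 in sick mice; it came mostly from Ttr, at 1.73 to 749 CPM in wild-type mice, while Cyp7a1 was at most 0.0568 CPM in any library and Alb at most 7.67. In whole-organ RNA, fewer cells of a type and less RNA per cell cannot be told apart, and this holds for every difference given here. The part of these markers in the results was not tested.

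All 94 genes had at least 1 count, and 63 passed the filter on low counts and were tested: 2 of 2 Cyp1, 20 of 38 Cyp2, 1 of 5 Cyp3, 8 of 9 Ugt1, 5 of 8 Ugt2, 19 of 22 Gst and 8 of 10 Sult genes. A mean of at least 1 CPM was reached by 52 genes in wild-type, 53 in healthy knock-in and 54 in sick mice. The other 31 genes had totals of 3 to 70 counts over all 12 libraries. Among them were the hepatic drug oxidase Cyp3a11 with 9 counts, Cyp2c29 with 4 and Gstp2 with 70. Of the Cyp3 family, which carries much of hepatic drug oxidation, only Cyp3a13 was tested, at 0.734 ± 0.491 CPM (SD, n = 4) in wild-type mice. The filter was exceeded in all 12 libraries by 46 of the tested genes, and 17 fell short of it in at least 1 library. Of those 17, 1 exceeded the filter in sick libraries alone, Sult4a1, which had to be high there to be tested. Among the other risen genes, Gsta1 and Sult5a1 also needed the sick group. Both exceeded the filter in all 4 sick libraries and in 1 healthy library, Gsta1 in 1 wild-type library and Sult5a1 in 2. Without the sick group neither reached the 4 libraries required. The rises of Sult4a1, Gsta1 and Sult5a1 are counted below but are not evidence of a rise. Among the fallen genes, Ugt2a3 exceeded the filter in 3 wild-type, 1 healthy and 0 sick libraries. Without the wild-type or the healthy group it did not reach the 4 libraries required. Its fall is counted below but is not evidence of a fall. A further 39 genes with names of these families have no symbol in the table, and none had more than 1 count in a library.

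Per kilobase of exon, Cyp2e1 stood highest of the 63 tested genes in wild-type kidney at 967 ± 92.0 CPM per kb (SD, n = 4). Cyp2j5 followed at 830 ± 57.7, Ugt2b38 at 580 ± 171, Gstm1 at 348 ± 255 and Sult1d1 at 293 ± 28.7. Of the neighbours in this order only Cyp2j5 and Ugt2b38 lay more than their SDs apart, so the order of the others is not resolved. In sick mice the order on the same scale was Gstm1 at 372 ± 99.7, Sult1d1 at 218 ± 82.9, Cyp2j5 at 173 ± 75.9, Cyp2e1 at 138 ± 119 and Ugt1a10 at 135 ± 69.5. Each of these overlapped the next within 1 SD, so this order is not resolved.

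The summed level of all 94 genes was 10170 ± 1002 CPM in wild-type, 9461 ± 1531 in healthy knock-in and 3997 ± 1012 in sick mice (SD, n = 4 each). Sick libraries ranged from 2846 to 5275 CPM and did not overlap the other groups, whose lowest library stood at 7678. The Cyp2 sum was 5522 ± 433 CPM in wild-type and 1189 ± 492 in sick mice. The Ugt2 sum was 1411 ± 336 and 95.4 ± 62.0 CPM. The other sums overlapped between these groups, except that of Cyp1: Ugt1 610 ± 71.4 and 520 ± 228 CPM, Gst 1650 ± 644 and 1373 ± 296, and Sult 938 ± 47.4 and 638 ± 235. As a share of library totals these 3 means turned to higher in sick mice, from 0.0531% to 0.0675% for Ugt1, 0.144% to 0.179% for Gst and 0.0816% to 0.0829% for Sult, and without wild-type mouse 2 the wild-type Gst mean was 1328 CPM. Cyp1 stood at 38.1 ± 3.40 CPM in wild-type and 180 ± 67.0 in sick mice. In wild-type kidney Cyp2e1 alone made up 20.5% of the summed level and Cyp2j5 19.1%, whereas in sick kidney Gstm1 (13.7%) and Sult1d1 (13.4%) led.

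**Figure D1:**
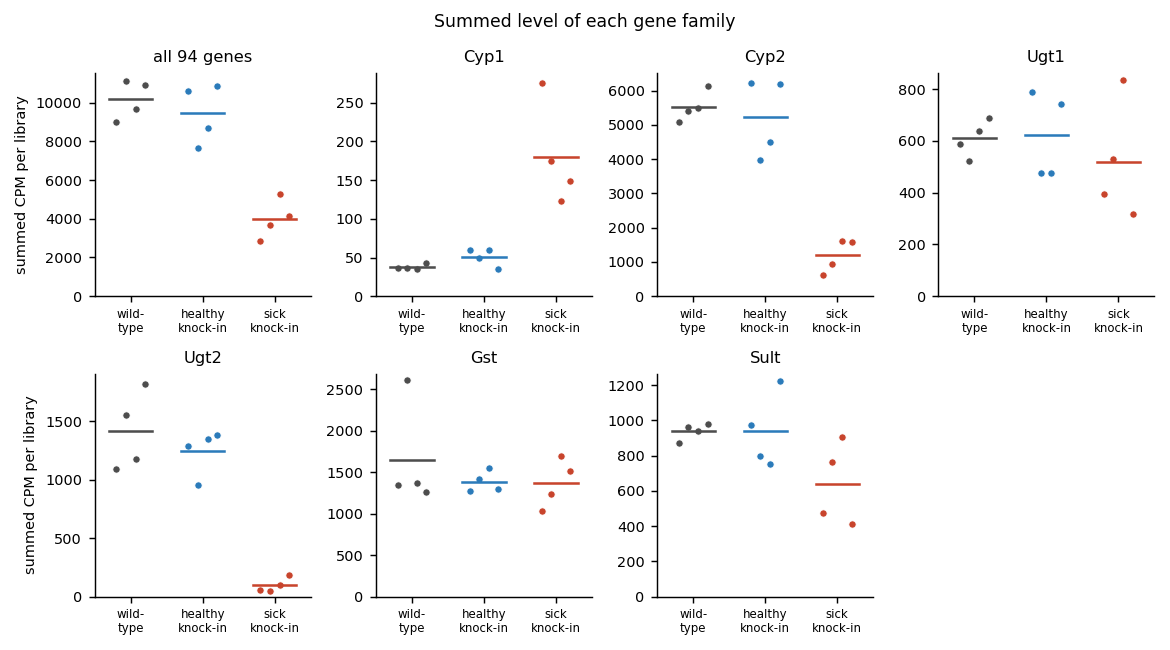
Summed CPM per library (vertical axis, linear from 0) of all 94 genes and of 6 families in the 3 groups; each point is 1 mouse and each line the mean of 4. The Cyp2 and Ugt2 sums of the 4 sick mice lie below every other library, the Cyp1 sum lies above, and the Gst sum of wild-type mouse 2 stands at 2613 CPM.

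Sick knock-in mice were first set against wild-type mice, a comparison that joins the genotype and the illness. Of the 63 tested genes 14 rose and 20 fell, together 54.0%, where a call is an adjusted p below 0.05 in the quasi-likelihood test of edgeR. Over all 15589 tested genes 50.9% were called in this comparison, 25.9% risen and 25% fallen. The groups did not overlap for 31 of the 63, against 43.2% of all tested genes. The median log2 fold change of the 63 was -0.34, beside 0.02 over all tested genes. By family, 2 Cyp2 genes rose and 6 fell, with a median of -0.80. Of the Ugt1 genes 2 rose and 5 fell. Of the 5 Ugt2 genes 0 rose and 3 fell, Ugt2a3 among them. Of the Gst genes 5 rose, Gsta1 among them, and 4 fell, with a median of 0.07. Of the Sult genes 4 rose, Sult4a1 and Sult5a1 among them, and 1 fell. Scaling by library totals alone, which moves the median log2 fold change of all tested genes from 0.02 to 0.61, gave 23 risen and 15 fallen.

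**Figure D2:**
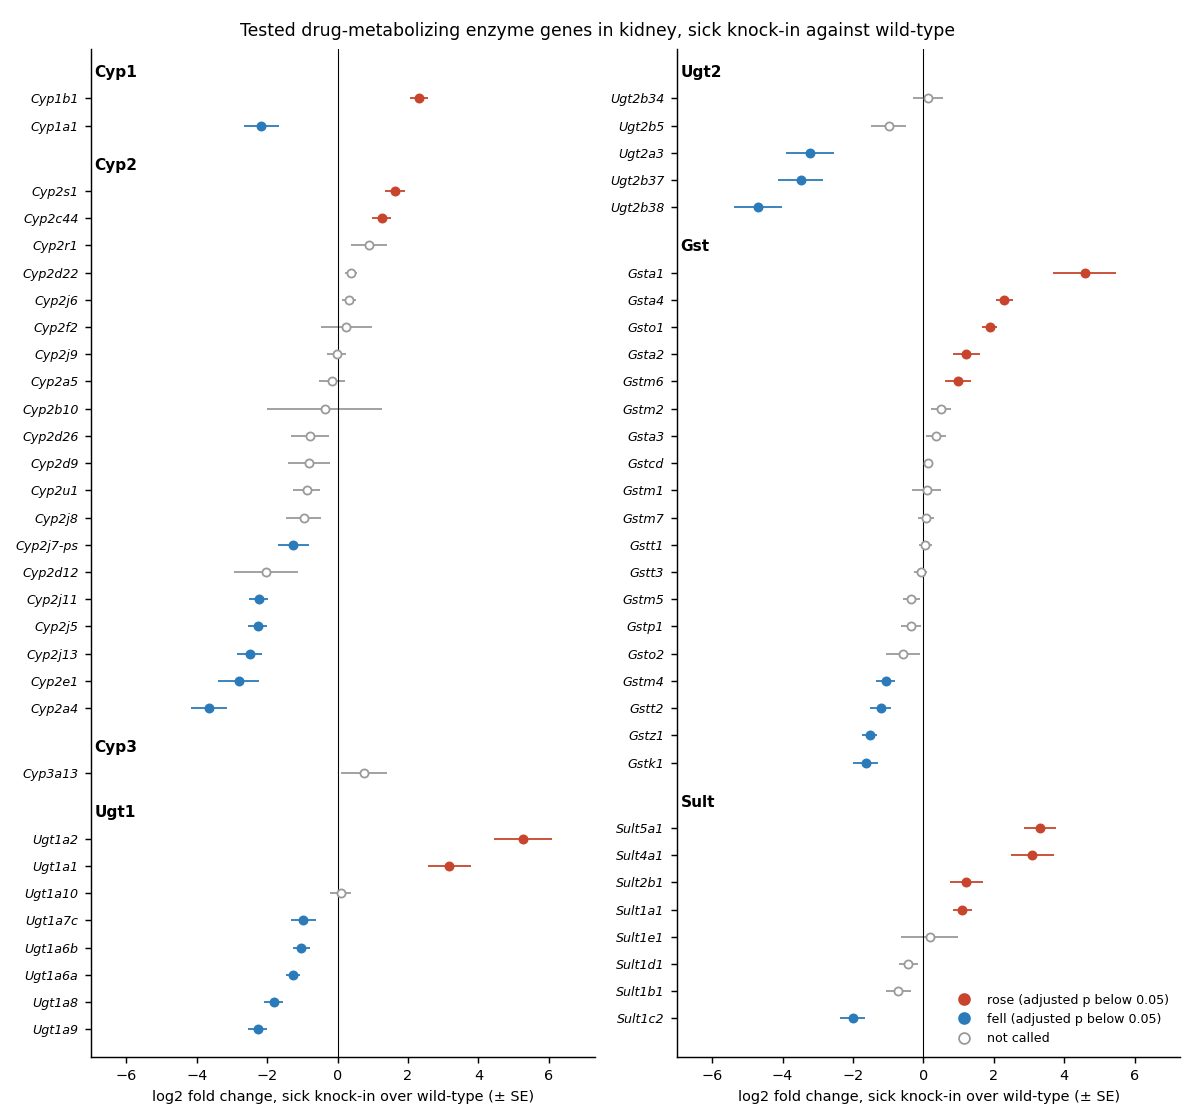
Log2 fold change, sick knock-in over wild-type (horizontal axis), of the 63 tested genes by family, with bars of 1 SE; filled red points rose, filled blue points fell, open points were not called. Of the 5 Ugt2 genes 3 lie below -3 and the Gst genes lie on both sides of 0.

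Among the P450 genes, the 2 Cyp1 genes moved in opposite directions. Both encode oxidases of polycyclic aromatic compounds whose transcription the aryl hydrocarbon receptor (Ahr) is known to raise. Cyp1b1 stood at 35.0, 34.9, 33.9 and 41.7 CPM in wild-type, at 58.8, 47.4, 57.1 and 32.4 in healthy knock-in and at 275, 175, 123 and 148 in sick mice. All 4 sick libraries lay above the other 8. It rose by 2.31 ± 0.25 on the log2 scale (SE, 4.95-fold, adjusted p = 1.57e-05). Cyp1a1 stood at 1.70, 2.18, 1.56 and 1.37 CPM in wild-type mice and at 0.446, 0.166, 0.230 and 0.668 in sick mice, again without overlap but lower, at -2.16 ± 0.50 (adjusted p = 0.00291). Of the fibroblast markers Col1a1, 30.7 to 80.2 CPM in wild-type and 513 to 1208 in sick mice, moved in the same libraries as Cyp1b1, and its part in that result was not tested.

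The promoters of both Cyp1 genes are shown because they share the core of the Ahr response element while the genes moved apart. They are the 250 bases before the RefSeq start on build GRCm38.p6, written 5′ to 3′ on the strand of the gene, with capitals on the core GCGTG or its reverse complement. Cyp1a1 lies at chr9:57697363-57697612 on the plus strand and Cyp1b1 at chr17:79715062-79715311 on the minus strand.
Cyp1a1: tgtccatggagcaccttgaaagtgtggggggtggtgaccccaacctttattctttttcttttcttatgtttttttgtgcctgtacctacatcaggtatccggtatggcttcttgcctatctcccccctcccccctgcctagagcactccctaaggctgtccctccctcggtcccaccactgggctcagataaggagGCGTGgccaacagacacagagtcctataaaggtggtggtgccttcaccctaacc
Cyp1b1: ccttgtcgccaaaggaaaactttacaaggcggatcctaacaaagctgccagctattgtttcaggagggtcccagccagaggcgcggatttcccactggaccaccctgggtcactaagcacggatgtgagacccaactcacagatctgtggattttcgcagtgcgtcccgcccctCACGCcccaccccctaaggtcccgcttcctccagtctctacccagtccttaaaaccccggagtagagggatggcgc
The core began 54 bases before the start of Cyp1a1 on the gene's strand and 76 bases before that of Cyp1b1 on the other strand. On both strands of 300-base windows that also take in the first 50 transcribed bases, GCGTG was found in 32.4% of 32851 RefSeq promoters. It was found in 4 of the 11 risen genes that have a promoter entry, 3 of the 17 fallen and 9 of the 26 not called. The antioxidant response core TGACNNNGC (12.4% of all promoters) was in 0, 0 and 4 of them, and the HNF4 motif CAAAGTCCA (0.475%) in 0, 0 and 1. The 3 motifs were searched on both strands independently, so matches of different motifs may overlap, and a match is a description of letters only.

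The 5 Cyp2 genes of highest mean CPM in wild-type kidney, Cyp2e1, Cyp2j5, Cyp2j13, Cyp2a4 and Cyp2j11, fell, and the next 5, from Cyp2d9 at 72.9 to Cyp2j6 at 34.1 CPM, were not called. Cyp2e1, which oxidizes ethanol, acetone and paracetamol, stood at 1868, 2117, 2023 and 2342 CPM in wild-type, at 2877, 1104, 1539 and 2856 in healthy knock-in and at 54.5, 231, 247 and 658 in sick mice. Every sick library was below every other one, and the sick mice themselves spanned a wide range. Its log2 fold change was -2.81 ± 0.58 (adjusted p = 0.00138), and -3.56 without sick mouse 4. Cyp2j5, a kidney-rich epoxygenase of arachidonic acid, stood at 1927, 1765, 2021 and 2073 CPM in wild-type and at 231, 299, 630 and 458 in sick mice. It fell 4.81-fold without overlap (log2 -2.27 ± 0.27, adjusted p = 2.64e-05).

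Cyp2j5 lies in a cluster of 8 Cyp2j genes at chr4:96027534-96664154 (GRCm38, GENCODE vM21 annotation), and its neighbours divided. Cyp2j13 went from 731 ± 237 to 129 ± 65.3 CPM (SD, n = 4 each; log2 -2.50 ± 0.35, adjusted p = 8.30e-05). Cyp2j11 went from 183 ± 14.4 to 38.7 ± 21.5 CPM (log2 -2.25 ± 0.28, adjusted p = 3.63e-05). Cyp2j7-ps, named a pseudogene though its biotype is protein coding, had a log2 fold change of -1.25 (adjusted p = 0.0293). Its call was lost without wild-type mouse 1 or 3 or sick mouse 1 or 4 (adjusted p 0.0737 to 0.081) and with library totals alone (0.178). Cyp2j6 was at 34.1 ± 6.67 and 42.8 ± 10.7 CPM (adjusted p = 0.166, 0.0387 without sick mouse 4 and 0.00132 with library totals alone), and Cyp2j9 at 11.5 ± 2.66 and 11.3 ± 1.89 CPM (adjusted p = 0.959). Of the 8 Cyp2j genes, 7 were tested, 4 fell and 0 rose; Cyp2j8 (log2 -0.96, adjusted p = 0.128, and 0.0307 without wild-type mouse 1) was the other one not called.

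Cyp2a4 and Cyp2a5, a testosterone hydroxylase and a coumarin hydroxylase, are related genes at chr7:26307169-26315088 and chr7:26835305-26843548, with Cyp2b23 and Cyp2b19 between them. Cyp2a4 stood at 197, 342, 283 and 226 CPM in wild-type, at 289, 194, 329 and 228 in healthy knock-in and at 4.46, 13.4, 28.9 and 37.6 in sick mice. It fell 12.5-fold without overlap (log2 -3.64 ± 0.51, adjusted p = 9.06e-05). Cyp2a5 stood at 65.1, 61.7, 103 and 51.1 CPM in wild-type and at 53.3, 39.7, 103 and 55.5 in sick mice, groups that overlapped (log2 -0.16 ± 0.36, adjusted p = 0.736). Of the 50-base windows of their transcripts, 38.0% for Cyp2a4 and 37.0% for Cyp2a5 also occur in another gene, so some reads cannot be assigned between them. The difference between the genes' fold changes was not tested.

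Their promoters are shown because so few letters separate them, with capitals on the letters that differ between the genes. Cyp2a4 lies at chr7:26306942-26307191 and Cyp2a5 at chr7:26835089-26835338, both on the plus strand, from RefSeq on GRCm38.p6.
Cyp2a4: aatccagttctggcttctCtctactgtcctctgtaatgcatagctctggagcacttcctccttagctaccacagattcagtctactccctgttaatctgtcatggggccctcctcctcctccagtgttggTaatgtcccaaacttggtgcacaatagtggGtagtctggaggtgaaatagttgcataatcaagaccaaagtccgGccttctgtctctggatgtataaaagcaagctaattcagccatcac
Cyp2a5: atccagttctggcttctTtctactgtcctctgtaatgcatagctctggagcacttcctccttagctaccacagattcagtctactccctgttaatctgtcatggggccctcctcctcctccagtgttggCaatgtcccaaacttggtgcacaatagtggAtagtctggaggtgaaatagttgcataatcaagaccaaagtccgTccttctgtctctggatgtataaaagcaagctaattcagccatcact
Aligned without gaps at a shift of 1 base, 245 of 249 letters were the same (98.4%) and 4 differed.

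Of the other Cyp2 genes, Cyp2s1 rose from 11.5 ± 2.69 to 35.5 ± 14.7 CPM (log2 1.63 ± 0.28, adjusted p = 0.000393). Cyp2c44, an epoxygenase of arachidonic acid, rose from 1.48 ± 0.362 to 3.54 ± 1.19 CPM (log2 1.25 ± 0.28, adjusted p = 0.00256). The groups did not overlap for either gene. The Cyp2d genes, whose human relatives oxidize many drugs, passed the test in neither direction. Cyp2d22 was at 48.1 ± 5.90 and 62.7 ± 14.4 CPM (adjusted p = 0.0983). Cyp2d9 was at 39.6, 109, 76.6 and 66.4 CPM in wild-type and at 16.9, 36.4, 96.0 and 17.3 in sick mice (adjusted p = 0.282), and Cyp2d26 at 52.2, 62.4, 71.6 and 14.6 against 16.3, 20.7, 69.8 and 11.1 (adjusted p = 0.248). In both genes sick mouse 3 stood among the wild-type mice while the other sick mice were low; without it the log2 fold changes were -1.63 (adjusted p = 0.0268) and -1.65 (0.00666). Cyp2d12, at 3.20 ± 2.60 and 0.814 ± 0.679 CPM, reached an adjusted p of 0.0434 without wild-type mouse 4 and 0.0465 without sick mouse 3, against 0.0809 with all libraries; DESeq2's test gave 0.0358 and the 8 libraries of the comparison alone 0.0499. Cyp2d22 reached 0.0385 without sick mouse 4, 0.0343 with upper-quartile scaling and 0.000436 with library totals alone, each time as higher in sick mice.

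The Ugt1 genes lie at 1 locus, chr1:88055388-88220002 on the plus strand, where alternative first exons join a set of shared exons. The shared exons make 50.3% to 60.6% of the exon bases of the 8 tested genes, so a count given to one of them can stem from another, and differences between them may be understated or misplaced. For Ugt1a1, 41.5% of the exon bases also lie under a gene on the other strand, and whether counting used strand is not known. Within that limit 2 genes rose, 5 fell and 1 was not called. Ugt1a2 stood at 4.61, 0.766, 0.953 and 1.63 CPM in wild-type, at 1.91, 3.36, 1.89 and 0.738 in healthy knock-in and at 46.1, 36.8, 201 and 18.0 in sick mice. The groups did not overlap, and sick mouse 3 stood far above the other sick mice. The log2 fold change was 5.27 ± 0.83 (adjusted p = 0.000224), 4.09 without sick mouse 3 and 6.06 without wild-type mouse 1.

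Ugt1a1, the transferase that conjugates bilirubin, stood at 0.405, 1.30, 0.433 and 1.17 CPM in wild-type and at 8.64, 5.78, 15.0 and 1.64 in sick mice (log2 3.17 ± 0.61, adjusted p = 0.000948). Ugt1a9, which conjugates bulky phenols, stood at 44.6, 74.0, 64.1 and 35.0 CPM in wild-type and at 8.03, 9.56, 12.1 and 15.7 in sick mice. It fell 4.80-fold without overlap (log2 -2.26 ± 0.27, adjusted p = 3.02e-05). Ugt1a8 (log2 -1.82 ± 0.27, adjusted p = 0.000159), Ugt1a6a (-1.27 ± 0.21, 0.000271) and Ugt1a6b (-1.03 ± 0.24, 0.00308) fell with it, the latter pair being transferases of small planar phenols. The Ugt1a6b call was lost with library totals alone (0.0867). Ugt1a7c had a log2 fold change of -0.97 (adjusted p = 0.0357). Its call was lost without wild-type mouse 4 (0.146), without any 1 of the 4 sick mice (0.0542 to 0.0728), with upper-quartile scaling (0.0603) and with library totals alone (0.35).

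Ugt1a10 had the highest level of the locus in wild-type kidney and was not called. It stood at 299, 277, 322 and 255 CPM in wild-type, at 275, 245, 174 and 296 in healthy knock-in and at 221, 363, 498 and 141 in sick mice (log2 0.08 ± 0.31, adjusted p = 0.842). The sick mice spread to both sides of the wild-type range. As a share of the summed Ugt1 level, Ugt1a10 was 47.3% in wild-type and 58.7% in sick mice, and Ugt1a7c 26.2% and 15.7%.

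**Figure D3:**
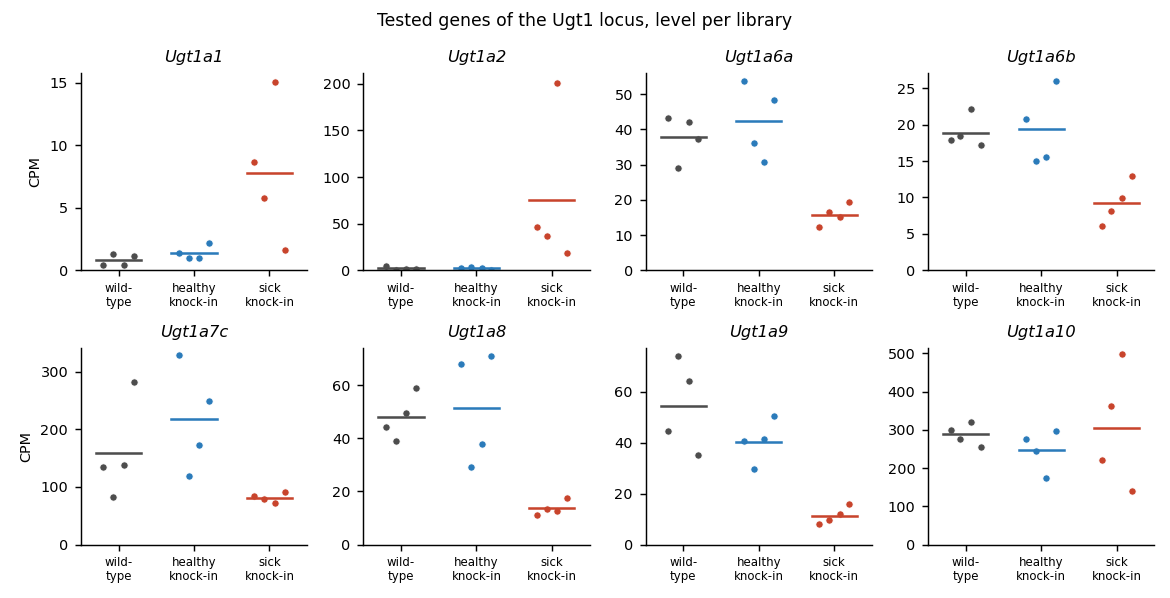
CPM per library (vertical axes, linear from 0) of the 8 tested Ugt1 genes in the 3 groups; each point is 1 mouse and each line the mean of 4. Ugt1a1 and Ugt1a2 have higher means in sick mice, with sick mouse 3 highest at 15.0 and 201 CPM, while Ugt1a6a, Ugt1a6b, Ugt1a8 and Ugt1a9 are lower and Ugt1a10 spreads on both sides. In Ugt1a1 sick mouse 4 (1.64 CPM) lies below healthy knock-in mouse 4 (2.21 CPM).

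The Ugt2 genes conjugate steroids, bile acids and drugs, and lie in a cluster at chr5:86889767-87482260. Ugt2b38 stood at 909, 863, 1051 and 1566 CPM in wild-type, at 1107, 522, 1042 and 1179 in healthy knock-in and at 11.0, 12.9, 36.9 and 109 in sick mice. It fell 25.9-fold without overlap (log2 -4.70 ± 0.68, adjusted p = 0.000118). Without sick mouse 4 the value was -5.77. Ugt2b37 stood at 154, 652, 95.4 and 238 CPM in wild-type and at 12.7, 12.8, 27.9 and 48.3 in sick mice (log2 -3.49 ± 0.63, adjusted p = 0.000567), and at -2.69 without wild-type mouse 2, in which it was highest. Ugt2a3 stood at a far lower level, 1.37 ± 1.18 and 0.157 ± 0.104 CPM (log2 -3.22, and -2.40 without wild-type mouse 2). These values are given as a description, since Ugt2a3 passed the filter only with the wild-type group counted. Ugt2b34 was at 22.6 ± 9.52 and 24.8 ± 8.02 CPM (adjusted p = 0.816), and Ugt2b5 at 4.71 ± 4.04 and 2.44 ± 1.02 CPM (adjusted p = 0.113).

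The promoters of Ugt2b37 and Ugt2b38 are shown because these genes held most of the Ugt2 level, fell together and resemble each other at the start. Capitals mark the letters that differ between the genes where they align. Ugt2b37 lies at chr5:87254789-87255038 and Ugt2b38 at chr5:87424204-87424453, both on the minus strand, from RefSeq on GRCm38.p6.
Ugt2b37: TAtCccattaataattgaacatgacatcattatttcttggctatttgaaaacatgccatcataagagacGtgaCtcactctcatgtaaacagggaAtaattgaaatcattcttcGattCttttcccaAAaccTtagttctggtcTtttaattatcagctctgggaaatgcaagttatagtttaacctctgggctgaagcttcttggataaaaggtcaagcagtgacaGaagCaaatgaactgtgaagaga
Ugt2b38: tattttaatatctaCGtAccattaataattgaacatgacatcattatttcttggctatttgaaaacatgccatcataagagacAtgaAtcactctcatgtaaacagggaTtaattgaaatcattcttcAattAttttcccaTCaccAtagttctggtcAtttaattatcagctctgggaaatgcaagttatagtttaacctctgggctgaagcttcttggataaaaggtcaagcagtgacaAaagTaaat
At a shift of 14 bases, 222 of 236 letters were the same (94.1%) and 14 differed. The same measure gave 59.9% for Ugt2b38 and Ugt2b5. The transcripts share sequence too: 18.3% of the 50-base windows of Ugt2b37 and 37.4% of those of Ugt2b38 occur in another gene, chiefly Ugt2b5.

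The glutathione transferases are given by class. Of the alpha class, 3 of 4 genes rose, Gsta1 among them. Gsta4, which conjugates the lipid aldehyde hydroxynonenal, stood at 13.9, 17.8, 11.9 and 11.2 CPM in wild-type, at 13.2, 11.0, 21.0 and 9.37 in healthy knock-in and at 56.6, 62.3, 77.8 and 72.9 in sick mice. All sick libraries lay above the other 8 (log2 2.30 ± 0.24, 4.91-fold, adjusted p = 1.31e-05). Gsta1 stood at 0.890, 0.118, 0 and 0.522 CPM in wild-type and at 6.37, 7.27, 17.3 and 6.06 in sick mice (log2 4.58, and 5.31 without wild-type mouse 1). These values are given as a description, since Gsta1 passed the filter only with the sick group counted. Of its 50-base windows 90.5% occur in another gene, so its counts cannot be told from those of its copies. Gsta2 stood at 12.7, 29.7, 28.3 and 7.89 CPM in wild-type and at 31.1, 45.0, 70.3 and 36.6 in sick mice (log2 1.22 ± 0.38, adjusted p = 0.018). That call was lost without wild-type mouse 1 (0.0547) or sick mouse 3 (0.0578). Sequence is shared here too: 49.8% of the 50-base windows of Gsta2 occur in another gene, and 36.0% in Gsta1. Some reads therefore cannot be assigned between Gsta1 and Gsta2. Gsta3 was at 38.0 ± 12.3 and 48.5 ± 23.4 CPM (adjusted p = 0.333).

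Gsto1, an omega-class enzyme that reduces dehydroascorbate, stood at 17.1, 22.6, 17.9 and 10.5 CPM in wild-type, at 19.8, 19.4, 17.0 and 15.4 in healthy knock-in and at 59.7, 61.4, 77.9 and 52.2 in sick mice. It rose 3.69-fold without overlap (log2 1.88 ± 0.21, adjusted p = 1.74e-05). Gsto2, of the same class, was at 1.07 ± 0.598 and 0.746 ± 0.300 CPM (adjusted p = 0.346). Gstz1, the maleylacetoacetate isomerase of tyrosine breakdown, stood at 375, 398, 354 and 351 CPM in wild-type and at 82.8, 105, 187 and 139 in sick mice. It fell 2.88-fold without overlap (log2 -1.53 ± 0.21, adjusted p = 7.13e-05). Gstk1, of mitochondria and peroxisomes, fell from 101 ± 43.6 to 32.7 ± 18.2 CPM (log2 -1.64 ± 0.36, adjusted p = 0.00208), and Gstt2, of the theta class, from 201 ± 78.9 to 86.5 ± 26.6 CPM (log2 -1.22 ± 0.29, adjusted p = 0.00343). With library totals alone the Gstt2 call was lost (0.0536). Gstt1 (69.1 ± 16.4 and 71.8 ± 17.9 CPM) and Gstt3 (54.2 ± 10.8 and 51.7 ± 12.3 CPM), of the same class, were not called, though with library totals alone Gstt1 was higher in sick mice (log2 0.64, adjusted p = 0.00597).

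Most genes of the mu class, which lie at chr3:107895821-108044894, were not called. Gstm1 stood at 343, 1076, 327 and 307 CPM in wild-type, at 243, 545, 551 and 275 in healthy knock-in and at 388, 503, 560 and 740 in sick mice (log2 0.09 ± 0.42, adjusted p = 0.87, and 0.74, adjusted p = 0.0612, without wild-type mouse 2). Wild-type mouse 2 stood above all other libraries, while the other 3 wild-type mice lay below all sick mice. That mouse was also the highest of the wild-type libraries in 16 of the 19 tested Gst genes. Without it Gstm2 had a log2 fold change of 0.83 (adjusted p = 0.0092), against 0.49 (adjusted p = 0.158) with it and 1.08 (0.00648) with library totals alone. Gstm4 fell from 15.6 ± 6.79 to 7.46 ± 2.24 CPM (log2 -1.07, adjusted p = 0.00602), a call lost with library totals alone (0.145). Gstm5 was at 136 ± 41.6 and 107 ± 36.4 CPM (adjusted p = 0.252, and 0.036 without sick mouse 3). Gstm6, at 0.919 ± 0.461 and 1.84 ± 0.368 CPM, had an adjusted p of 0.0415 that rose to between 0.0518 and 0.0971 on leaving out wild-type mouse 1, 3 or 4, healthy mouse 2, 3 or 4, or sick mouse 1, 2 or 4, and to 0.0662 without a filter and 0.0673 on the 8 libraries of the comparison alone. Gstp1, the pi-class enzyme, was at 50.6 ± 27.4 and 39.9 ± 9.10 CPM (adjusted p = 0.338).

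Of the sulfotransferases, the pair with the highest levels did not rise. Sult1d1, which sulfates catecholamines, stood at 671, 676, 711 and 823 CPM in wild-type, at 744, 600, 570 and 1058 in healthy knock-in and at 413, 672, 743 and 317 in sick mice (log2 -0.42 ± 0.27, adjusted p = 0.21). The sick mice fell into a pair within the wild-type range and a pair below it. Sult1c2 stood at 177, 250, 210 and 132 CPM in wild-type and at 22.5, 42.8, 90.6 and 35.2 in sick mice, and fell without overlap (log2 -2.01 ± 0.35, adjusted p = 0.000485). Sult1b1 was at 4.80 ± 0.985 and 2.97 ± 1.63 CPM (adjusted p = 0.108, and 0.0286 without sick mouse 3).

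The Sult genes that rose had lower levels than this pair in wild-type kidney. Sult1a1, which sulfates phenols, stood at 15.2, 29.1, 14.4 and 16.8 CPM in wild-type and at 28.0, 37.2, 53.3 and 44.3 in sick mice, and rose 2.15-fold (log2 1.10 ± 0.27, adjusted p = 0.00416). Wild-type mouse 2 overlapped the lowest sick mouse. Sult5a1 stood at 0.485, 0.766, 0.693 and 0.391 CPM in wild-type, at 0.254, 0.577, 1.43 and 0.398 in healthy knock-in and at 6.81, 4.15, 7.37 and 5.09 in sick mice (log2 3.30). These values, which did not overlap, are given as a description, since Sult5a1 passed the filter only with the sick group counted. Sult4a1, best known from brain, was at 0.145 ± 0.154 and 1.41 ± 0.534 CPM, values given as a description, since it passed the filter only through the sick group. Sult2b1, which sulfates cholesterol, was at 0.611 ± 0.361 and 1.50 ± 0.440 CPM (adjusted p = 0.0466). Its call was lost on leaving out wild-type mouse 1, 3 or 4 or any 1 of healthy mice 1, 2 and 3 or of the 4 sick mice (adjusted p 0.0529 to 0.11), and with no filter (0.0629) or DESeq2's size factors (0.0513).

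**Figure D4:**
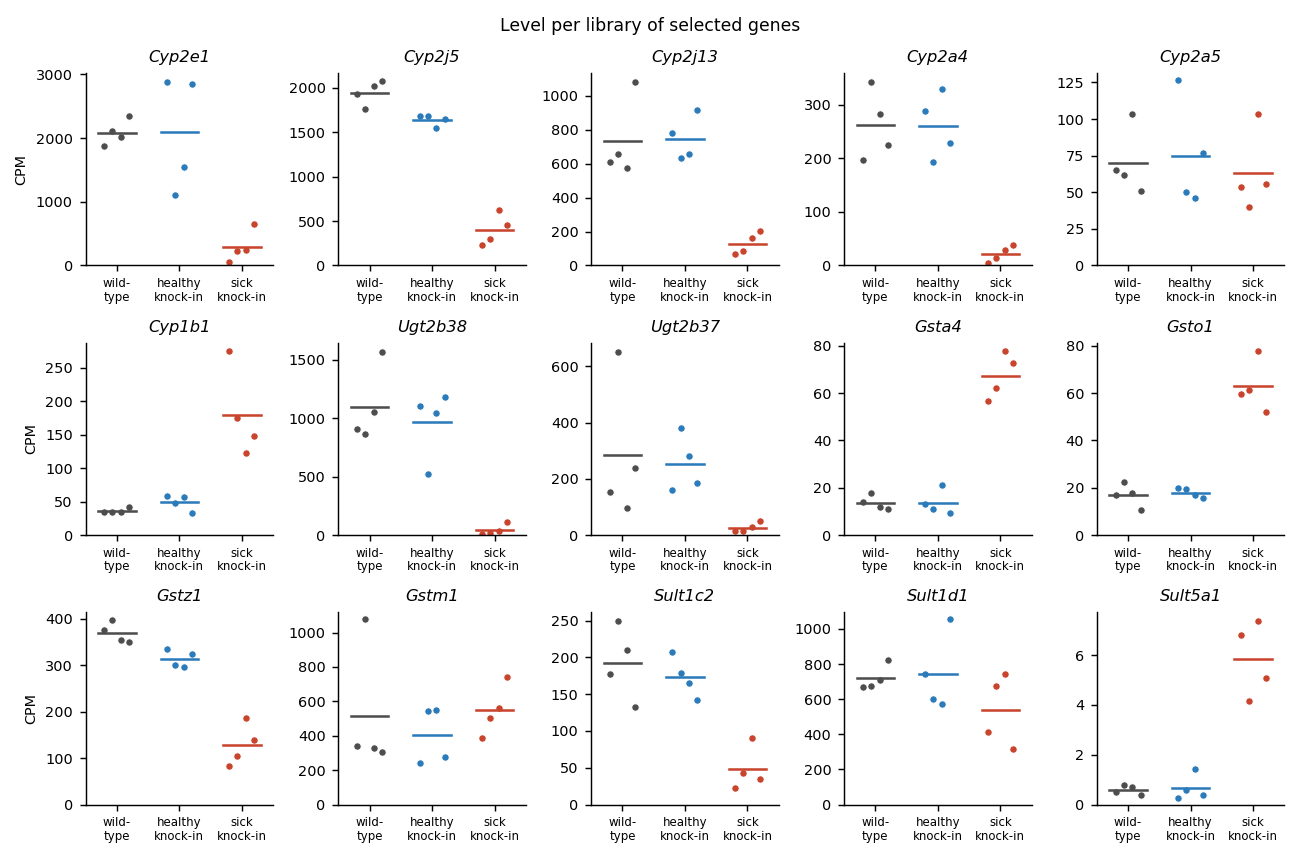
CPM per library (vertical axes, linear from 0) of 15 genes in the 3 groups; each point is 1 mouse and each line the mean of 4. In sick mice Cyp2e1, Cyp2j5, Cyp2j13, Cyp2a4, Ugt2b37, Ugt2b38, Gstz1 and Sult1c2 lie below every other library, Cyp1b1, Gsta4, Gsto1 and Sult5a1 lie above, and Cyp2a5, Gstm1 and Sult1d1 overlap.

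Healthy knock-in mice were then set against wild-type mice, a comparison of genotypes in the absence of illness. None of the 63 tested genes was called by edgeR (0 rose, 0 fell), 0 reached an unadjusted p below 0.05, and DESeq2 called 0. Over all tested genes 0.314% were called (0.308% risen and 0.00641% fallen) and 4.49% had an unadjusted p below 0.05. The median log2 fold change of the 63 was -0.02, beside -0.01 over all genes. The groups did not overlap for 3 genes, Cyp2j5, Cyp2j11 and Gstz1, all lower in healthy knock-in mice, where 3.97% of all tested genes did not overlap. Cyp2j5 stood at 1687, 1684, 1548 and 1649 CPM in healthy knock-in mice, below its lowest wild-type value of 1765 (log2 -0.25 ± 0.26, adjusted p = 0.912). Gstz1 was at 314 ± 18.4 CPM against 370 ± 21.8 (log2 -0.24 ± 0.20, adjusted p = 0.912).

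Single healthy knock-in mice stood apart in a few genes. Cyp2b10, the P450 best known for its response to phenobarbital, stood at 0.572, 0.210, 1.20 and 77.9 CPM in healthy knock-in mice, at 0.162, 2.42, 0.607 and 3.98 in wild-type and at 0, 3.88, 1.38 and 0.257 in sick mice. Mouse 4 alone set the healthy mean (log2 3.43 ± 1.63, adjusted p = 0.912). Cyp2e1 in this group fell into a pair of 2877 and 2856 CPM and a pair of 1104 and 1539, and the same mice 1 and 4 were higher than mice 2 and 3 in Ugt1a8 (67.8 and 71.1 against 29.0 and 37.7 CPM) and Ugt1a7c (329 and 249 against 118 and 173 CPM).

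Sick mice were last set against healthy mice of the same genotype. Both comparisons of sick mice use the same 4 sick libraries, so their values stand side by side and are not independent. Of the 63 tested genes 15 rose and 22 fell, together 58.7%, beside 46.4% of all tested genes (24.5% risen and 21.9% fallen). The groups did not overlap for 34, beside 47.2% of all. The median log2 fold change was -0.23, beside 0.05 over all tested genes. Library totals alone, with a median of 0.63 over all tested genes, gave 26 risen and 15 fallen. Ugt2b38 had a log2 fold change of -4.51 ± 0.68 (adjusted p = 0.000182, and -5.58 without sick mouse 4) and Ugt1a2 of 5.24 ± 0.82 (adjusted p = 0.000253, and 4.08 without sick mouse 3). Cyp2e1 stood at -2.81 ± 0.58 (adjusted p = 0.00161, and -3.56 without sick mouse 4), Cyp2j5 at -2.02 ± 0.27 (adjusted p = 7.07e-05) and Cyp1b1 at 1.88 ± 0.25 (adjusted p = 7.16e-05). Gsta4 stood at 2.30 ± 0.24 (adjusted p = 1.66e-05) and Gsto1 at 1.81 ± 0.21 (adjusted p = 2.89e-05). Gsta1 stood at 3.86 (5.44 without healthy mouse 1) and Sult5a1 at 3.11 (3.78 without healthy mouse 3). Both are given as a description, since these genes passed the filter only with the sick group counted.

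Some calls differed from those against wild-type mice, and whether the fold changes themselves differ is the comparison of healthy with wild-type mice given above, in which 0 were called. Cyp2j6 (log2 0.61, adjusted p = 0.0189) and Gstm2 (0.81, 0.0305) rose against healthy mice, and Cyp2j8 (-1.54, 0.0191) and Cyp2u1 (-1.18, 0.0201) fell. Against wild-type mice Cyp2u1 stood at -0.88 (adjusted p = 0.071, 0.0415 without wild-type mouse 2 and 0.0435 without healthy mouse 4). Sult2b1 was not called here (0.88, adjusted p = 0.132, and 0.0161 with library totals alone). These calls lay close to the threshold: that of Cyp2j6 was lost without healthy mouse 3 (0.052) or sick mouse 3 (0.0586), that of Gstm2 without healthy mouse 1 or 4 or sick mouse 2 or 4 (0.0602 to 0.0882), that of Cyp2j8 without healthy mouse 4 or sick mouse 1 or 4 (0.0522 to 0.0611) and that of Cyp2u1 without healthy mouse 1 or 3 or sick mouse 4 (0.0531 to 0.057). The falls of Gstk1 (-1.10, adjusted p = 0.0213), Gstm4 (-0.89, 0.0179), Ugt2a3 (-2.37, 0.0141) and Cyp2j7-ps (-1.23, 0.0325) and the rise of Gsta2 (1.12, 0.0286) were lost without single libraries as well. These were healthy mouse 4 or sick mouse 1, 2 or 4 for Gstk1 (0.0509 to 0.0624), sick mouse 1 or 2 for Gstm4 (0.0533 and 0.0542), healthy mouse 2 for Ugt2a3 (0.0503), healthy mouse 1 or 4 or sick mouse 1 or 4 for Cyp2j7-ps (0.0839 to 0.108) and healthy mouse 1, 2 or 4 or sick mouse 2 or 3 for Gsta2 (0.0506 to 0.0898). The values of Ugt2a3 are a description here too, since it passed the filter only with the healthy group counted. Library totals alone ended the calls of Cyp2j8 (0.0897), Cyp2u1 (0.183), Cyp2j7-ps (0.203), Gstk1 (0.164), Gstm4 (0.33), Gstt2 (0.13) and Ugt1a6b (0.0724). Without sick mouse 3, Cyp2d9 (-1.73, 0.0228), Cyp2d26 (-1.14, 0.0417) and Sult1b1 (-0.95, 0.041) passed the threshold, as Cyp2b10 (-4.22, 0.0461) did without healthy mouse 2. Without healthy mouse 4, the mouse that set the healthy mean, Cyp2b10 turned to 1.08 (adjusted p = 0.518). Cyp2d12 (adjusted p = 0.0601) passed with DESeq2's test (0.0204) and without healthy mouse 2 or 3, sick mouse 3 or wild-type mouse 4 (0.032 to 0.047). Cyp2d22 (0.0818) passed without healthy mouse 1 (0.0303) or sick mouse 4 (0.0329), with upper-quartile scaling (0.0301) and with library totals alone (0.000368).

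The genes that supply and steer these enzymes were read from lists, for sick against wild-type mice. Over all tested genes 25.9% rose and 25% fell in this comparison. Of 11 electron donors and heme genes, 0 rose and 7 fell. Por, the reductase that serves every microsomal P450, went from 469 to 167 CPM (log2 -1.49 ± 0.19, adjusted p = 3.75e-05), and cytochrome b5 (Cyb5a) from 997 to 264 CPM (log2 -1.92 ± 0.26, adjusted p = 7.50e-05). Its outer mitochondrial relative Cyb5b stood at -1.18 and ferrochelatase, Fech, at -1.09. The list's median was -0.62, and -0.04 with library totals alone. Hmox1, which degrades heme, was not called (0.32, adjusted p = 0.561).

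Of 12 tested receptors and regulators, 3 rose, Ahrr among them, and 4 fell. Ahr rose by 0.91 ± 0.29 on the log2 scale (11.4 to 21.2 CPM, adjusted p = 0.0198) and the antioxidant regulator Nfe2l2 by 0.58 ± 0.12 (86.9 to 130 CPM, adjusted p = 0.00112). Ahrr, the repressor of Ahr, was at 0.239 and 0.592 CPM (log2 1.26). These values are given as a description, since Ahrr passed the filter only through the sick group. The tubule regulator Hnf4a (-1.47 ± 0.23, 1125 to 406 CPM, adjusted p = 0.000212) and the bile acid receptor Nr1h4 (-1.21 ± 0.31) fell. The xenobiotic receptor Nr1i2 (PXR) was at 4.63 and 8.18 CPM (adjusted p = 0.0808), and Nr1i3 (CAR) was too low to test, at 0.168 and 0.273 CPM. The list's median was -0.00935, and 0.58 with library totals alone.

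Of 9 genes of glucuronic acid supply and related transferases, 0 rose and 7 fell, with Ugt3a1 at -3.38, Ugt3a2 at -3.07 and Ugt8a at -2.48. Ugdh, which makes UDP-glucuronic acid, was at 113 and 94.7 CPM (log2 -0.26, adjusted p = 0.209). Of 9 sulfate genes 1 rose and 5 fell: the PAPS synthase Papss2 stood at -1.45 ± 0.23 (369 to 135 CPM, adjusted p = 0.000198), Bpnt1, which clears the spent donor, at -2.05, the sulfate transporter Slc26a1 at -1.77 and arylsulfatase B, Arsb, at -1.80, while arylsulfatase A, Arsa, rose by 0.89. Of 5 tested genes in a list of membrane-bound glutathione transferases and prostaglandin enzymes 4 rose and 0 fell. Of the Mgst genes Mgst1 rose and Mgst3 did not pass (log2 -0.08, adjusted p = 0.844), with Mgst1 at 2.64 ± 0.22 (24.5 to 153 CPM, adjusted p = 3.19e-06), the prostaglandin D synthase Hpgds at 2.60 and Ptgs1 at 1.18. Library totals alone moved the median of the glucuronic acid list from -1.06 to -0.48 and of the sulfate list from -1.45 to -0.86. For the Mgst and prostaglandin list it went from 1.18 to 1.78.

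Of 17 other phase I genes 4 rose and 9 fell, with the carboxylesterases Ces1f at -4.01 and Ces2c at -2.87, Cyp4b1 at -3.34, and Aox1 at 2.31, Maob at 1.94 and the epoxide hydrolase Ephx1 at 1.47. Of 10 other phase II genes 1 rose and 7 fell, with the acyl-CoA synthetases Acsm3, Acsm2 and Acsm1 at -4.60, -3.55 and -3.44 and the nicotinamide methyltransferase Nnmt at 3.49. Of 11 further Nrf2 target genes 5 rose and 4 fell: Slc7a11 rose by 1.96, Srxn1 by 0.88 and Nqo1 by 0.83 (37.0 to 65.9 CPM, adjusted p = 0.0085), and Me1 stood at -2.27, Gclm at -1.22 and Gclc at -1.07. Of 4 Ahr target genes outside the enzyme families 3 rose and 1 fell, with Aldh3a1 at 3.76 ± 0.95 (adjusted p = 0.00545) and Tiparp at -0.53. The other risen genes, Ahrr and Nqo1, are already counted in the lists above, and Ahrr passed the filter only through the sick group. Of 9 tested enzymes of arachidonic acid epoxides and hydroxy acids, 5 of them outside the Cyp2 family, 2 rose and 4 fell, with Cyp4a14 at 4.94 and Cyp4a12a at -4.26. Library totals alone moved the list medians from -0.88 to -0.28 for phase I, -2.31 to -1.75 for phase II and 0.32 to 0.95 for Nrf2 targets. For Ahr targets the median went from 1.05 to 1.63, and for arachidonic acid enzymes from -0.02 to 0.57. In healthy knock-in against wild-type mice 0 genes of these lists were called.

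**Figure D5:**
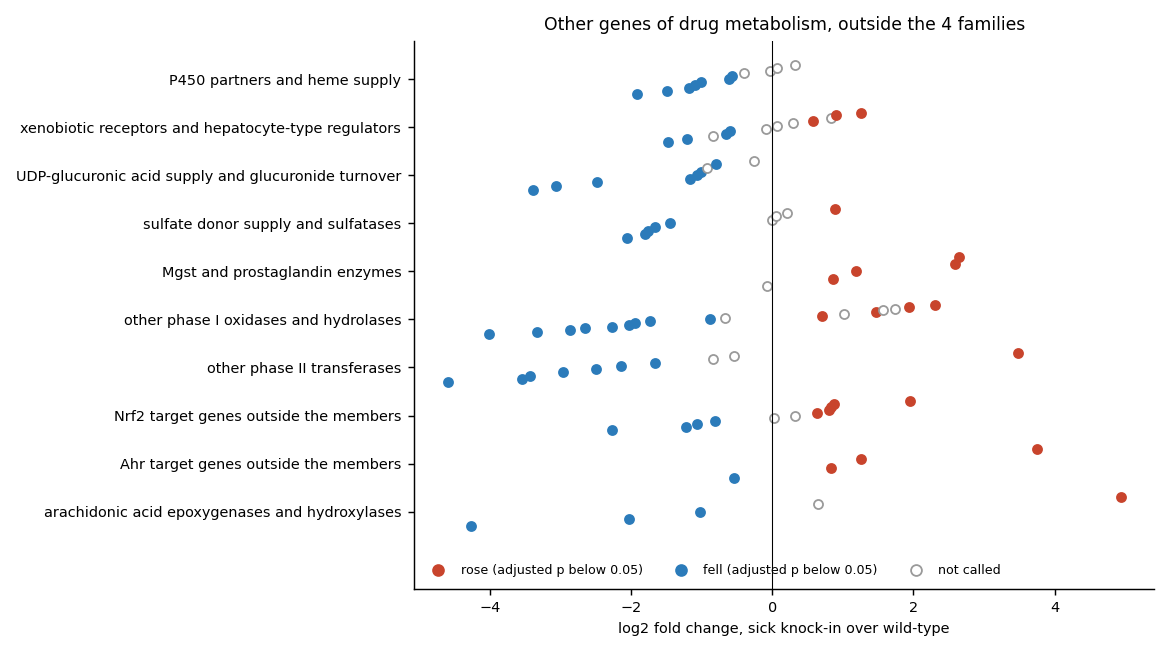
Log2 fold change, sick knock-in over wild-type (horizontal axis), of the tested genes of 10 lists, 1 list per line, the genes of the 4 enzyme families themselves being left out; filled red points rose, filled blue points fell, open points were not called, and a gene in more than 1 list is drawn in each. In the lists of P450 partners and of glucuronic acid supply 7 genes each fell and 0 rose, and in the list of Mgst and prostaglandin enzymes 4 rose, 1 of them an Mgst gene.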

How the data were processed

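Total RNA of 12 kidneys was extracted, cleared of DNA with DNase and turned into sequencing libraries, per the labels' protocols. The authors deposited 1 table of raw counts, with 1 row for each Ensembl gene and 1 column for each library, per the file headers. Per the submitters' processing notes the tools included TopHat2 2.0.11, Trim Galore 0.3.7, DESeq2 1.12.4 and Cufflinks, and the build was GRCm38. Which program counted reads, on which annotation and with which strand setting is not stated in any label or header read here. The 12 columns of normalized counts were not used.

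Groups and mouse numbers came from the labels, and replicates are separate mice. Counts were fitted with edgeR 4.0.16 in R 4.3.3: filterByExpr by group (at least 0.548 CPM in 4 libraries), TMM scaling, 1 mean per group over all 12 libraries, the quasi-likelihood F test and Benjamini-Hochberg adjustment over 15589 genes, called below 0.05. The SE is the size of the log2 fold change over the square root of F. The fit was tested on simulated counts. CPM uses TMM-scaled library sizes, and CPM per kb the exon lengths of GENCODE vM21. Promoters came from RefSeq on GRCm38.p6 and were found for 83 of the 94 genes. With 4 mice per group, the smallest detectable differences depend on level, and counts of a few per library carry wide counting error.

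The genes and lists were chosen with earlier results of these data known. Named genes were, per family, the 4 tested genes of highest mean CPM (6 for Cyp2 and Gst) and up to 3 called genes (5 for Cyp2 and Gst) of largest change in each direction, provided that the higher group reached 1 CPM. Cyp2b10, Cyp2d9, Cyp2d12, Cyp2d22, Cyp2d26, Cyp2j6, Cyp2j7-ps, Cyp2j8, Cyp2j9, Cyp2u1, Gsta3, Gstm2, Gsto2, Gstp1, Gstt3 and Ugt1a6b were added after their values were seen. So were genes named only as not tested and Slc26a1, Arsb, Hmox1, Mgst3, Col1a1, Alb, Fga and Ttr. The gene-by-gene checks of single libraries and of alternatives did not cover Cyp2j9, Gsta3, Gsto2 and Gstt3. Of the lists, up to 3 genes per direction by the same rule and 10 set genes are given. Slc26a1 and Arsb also meet that rule, while Fech and Ahrr, the latter below 1 CPM in each group, are named outside it. A withheld item is not reported here and was left out of its list. Alternatives were other scalings (DESeq2 size factors, upper quartile, library totals alone), no filter, 1 CPM in 4 libraries, DESeq2 1.42.0's test, robust dispersion, 8 libraries alone, a replicate block, an adjusted p of 0.01 and each library left out. No 2 libraries of a group agreed within sampling noise.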

Additional observations from a re-analysis of the deposited data

Results flagged for a closer look

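In 162 groups of 4 libraries checked, 19 had 1 library whose gap to its nearest neighbour exceeded Dixon's critical value for 4 samples at the 5% level, as a share of the group's range; chance marks about 1 in 20 groups. Of the 19, 6 were wild-type mouse 2 and 5 were sick mouse 3.

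Wild-type mouse 2 stood above the other wild-type mice in Gstm1 (1076 CPM, the others 307 to 343), Gstm4 (25.8, others 11.8 to 12.5), Gstm5 (197.8, others 113 to 118), Sult1a1 (29.1, others 14.4 to 16.8), Ugt2a3 (3.12, others 0.566 to 0.913) and Ugt2b5 (10.7, others 1.99 to 3.13). Sick mouse 3 stood above the other sick mice in Ugt1a2 (201 CPM, others 18.0 to 46.1), Gsta1 (17.3, others 6.06 to 7.27), Cyp2j11 (70.7, others 25.3 to 32.2), Cyp2d26 (69.8, others 11.1 to 20.7) and Sult2b1 (2.15, others 1.23 to 1.38). The marks on Cyp1b1 (41.7 CPM, others 33.9 to 35.0) and Cyp2j13 (1083, others 575 to 656) were wild-type mouse 4, and that on Cyp3a13 (3.14, others 0.487 to 0.691) was sick mouse 4.

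Among healthy knock-in mice, mouse 4 was high in Cyp2b10 (77.9 CPM, others 0.210 to 1.20) and low in Gsta2 (14.5, others 22.5 to 24.2). Mouse 1 was high in Gsta1 (1.97, others 0.105 to 0.343), and mouse 2 was high in Ugt2b34 (46.0, others 14.9 to 18.4) and low in Gstt2 (121, others 195 to 208).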

How the results depend on the processing

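In healthy knock-in against wild-type mice 0 genes were called under every alternative run. Against wild-type mice, sick mice had 14 risen and 20 fallen genes; leaving out each library in turn gave 11 to 16 and 18 to 24, and against healthy mice 13 to 15 and 18 to 26. With library totals alone the risen genes were 23 and 26, and Gstm5 turned from -0.04 to 0.54 (adjusted p = 0.0439) in sick against healthy mice. An adjusted p of 0.01 gave 11 and 18 against wild-type mice, and DESeq2's test gave 15 and 23. Leaving out wild-type mouse 2 and healthy mouse 4 together, an alternative chosen after seeing the data, gave 16 risen and 21 fallen against wild-type and 14 and 21 against healthy mice.

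With the replicate number as a block, 12 rose and 20 fell against wild-type mice, 15 and 21 against healthy mice, and 0 and 0 in healthy against wild-type mice. Against wild-type mice it ended the calls of Cyp2j7-ps (0.0651), Gstm6 (0.0577) and Sult2b1 (0.0809) and brought Cyp2u1 past the threshold (0.0336), and against healthy knock-in mice it ended the call of Cyp2j7-ps (0.0756). Whether the numbers pair the mice is not stated in the labels, and the correlations between libraries cannot decide it. Deviations of same-numbered mice correlated from -0.26 to 0.224 between sick and wild-type and from -0.109 to 0.243 between healthy and wild-type. Between sick and healthy they correlated from -0.0244 to 0.0588. In that order, 2, 2 and 1 of 4 numbers correlated best with their own. Depth limits the 31 untested genes and the tested genes near 1 CPM most.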
